A study of Mus musculus with 36 samples.

Results

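The vomeronasal type 2 receptor genes of the mouse, named Vmn2r followed by a number, were followed in RNA-seq libraries of the vomeronasal organ (VNO), the main olfactory epithelium (MOE) and the olfactory bulb (OB). Members were chosen by symbol alone: every RefSeq transcript entry whose symbol was Vmn2r plus digits was taken, entries of the same symbol were summed, and this gave 122 genes of 24737 in the VNO table. The 36 libraries came from C57BL/6 mice in 4 groups per tissue, with 3 libraries per group. The sex-separated groups, females (SF) and males (SM), were kept 4 to a cage with their own sex, while the sex-combined groups (CF for the females, CM for the males) came from mixed cages of 2 females and 2 males. According to the paper, SF and SM cages stood in rooms that held a single sex, so between them sex and room cannot be told apart. Litters were born in the sex-combined cages, and the paper reports that these pups were killed within a day. All mice were weaned at 3 weeks and sampled at 6 months, none carried a transgene or received an agent according to the labels, and each library was made from pooled animals. The study asked whether long-term exposure to the odours of the opposite sex alters the olfactory tissues. Levels are FPKM, fragment counts scaled for transcript length and library depth, so that genes of different length can be set side by side.

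Vmn2r receptors are G protein-coupled receptors with a long extracellular domain that binds peptides and proteins, among them pheromones of tears and urine and peptides of the major histocompatibility complex. They are made by the basal sensory neurons of the VNO, which signal through the G protein subunit encoded by Gnao1 and the channel encoded by Trpc2, whereas the apical neurons use Vmn1r receptors. A basal neuron usually makes a member of family C (Vmn2r1 to Vmn2r7) together with a more narrowly distributed member of the other families, and many neurons also make class I molecules encoded by the H2-M genes.

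The sequences of a few members show how closely the family is related, which decides how well reads can be assigned. The first 60 coding bases of the 3 members with the highest VNO levels are printed here from GRCm38 with the GENCODE M21 models, 5′ to 3′ on the coding strand, and capitals mark positions at which the 3 differ.
Vmn2r89, chr14:51452042-51452101, plus strand: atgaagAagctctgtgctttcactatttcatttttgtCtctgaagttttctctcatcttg
Vmn2r88, chr14:51411001-51411060, plus strand: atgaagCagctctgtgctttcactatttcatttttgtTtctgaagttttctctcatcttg
Vmn2r121, chrX:124135772-124135831, minus strand: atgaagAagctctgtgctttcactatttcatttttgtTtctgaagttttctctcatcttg
Only 2 of the 60 positions differed among these 3 genes, although Vmn2r121 lies on the X chromosome and the others on chromosome 14. Over the coding sequence, Vmn2r121 was 93.8% identical to Vmn2r88 and 94.0% identical to Vmn2r89, which was its nearest relative in the family.

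The starts of 3 family C genes are shown because Vmn2r4 and Vmn2r6 cannot be told apart there, with capitals at the positions where Vmn2r5 differs from both.
Vmn2r4, chr3:64415237-64415296, minus strand: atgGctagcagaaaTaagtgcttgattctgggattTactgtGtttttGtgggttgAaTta
Vmn2r6, chr3:64565239-64565298, minus strand: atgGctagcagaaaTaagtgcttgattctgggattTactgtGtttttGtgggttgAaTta
Vmn2r5, chr3:64509676-64509735, minus strand: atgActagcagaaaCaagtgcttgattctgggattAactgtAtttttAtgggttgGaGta
Identity within Vmn2r2 to Vmn2r7 ranged from 86.8% to 98.8%, and Vmn2r1 was 85.0% to 88.5% identical to them. All 7 were far from the rest of the family, at 53.5% to 58.9%.

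The remaining pairs hold Vmn2r81 and Vmn2r49, whose levels were lower in females than in males in every library (described with the sex comparison), each beside its nearest relative. The first 60 coding bases were the same within each pair, so the 60-base exonic window with the most differences is printed, with the differing bases in capitals.
Vmn2r81, chr10:79247932-79247991, plus strand: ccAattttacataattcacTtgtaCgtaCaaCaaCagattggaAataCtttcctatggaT
Vmn2r82, chr10:79356729-79356788, plus strand: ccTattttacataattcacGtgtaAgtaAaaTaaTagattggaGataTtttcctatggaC
Vmn2r49, chr7:9992021-9992080, minus strand: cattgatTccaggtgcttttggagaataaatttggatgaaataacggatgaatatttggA
Vmn2r32, chr7:7479855-7479914, minus strand: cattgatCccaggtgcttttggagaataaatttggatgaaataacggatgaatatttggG
Vmn2r81 and Vmn2r82 differed at 100 of 2595 coding bases. Vmn2r49 and Vmn2r32 differed at only 14 of 2556.

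Across the family, 120 members had a GENCODE coding sequence, and the median identity to the nearest relative was 94.6%, with 57 members at 95% or more. The share of a member's 50-base coding words that occur in no other gene's transcript (unique words) ranged widely, from all words in Vmn2r118 through 68.5% in Vmn2r121 and 14.6% in Vmn2r49 to 0.0% in Vmn2r47. The 25 members with under 20% of such unique words had a median VNO level of 0.243 FPKM, against 1.39 FPKM for the 33 members with 80% or more, and Spearman's rho over the 120 members was 0.27. This relation is a description across genes that share the same 12 libraries, and the part that ambiguous reads play in it was not tested.

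The VNO libraries held between 3370000 and 6430000 estimated fragments assigned to genes, and the summed Vmn2r level was similar in all of them. It was 249, 250 and 281 FPKM in the SF libraries, 287, 245 and 264 in SM, 300, 282 and 253 in CF, and 285, 266 and 264 in CM. The sum was 269 ± 21.2 in females and 269 ± 15.7 in males (SD, n = 6 each), and the ranges of all 4 groups overlapped. The summed level of the 221 Vmn1r genes was 186 ± 17.3 FPKM in females and 213 ± 16.5 in males (SD, n = 6 each), with overlapping ranges. The ratio of summed Vmn2r to summed Vmn1r levels was 1.36 to 1.53 in the 6 female libraries and 1.22 to 1.34 in the 6 male libraries. The female and male ranges of that ratio did not overlap, which was noticed after the values had been seen and was not tested. In whole tissue, fewer cells of a type and less RNA per cell cannot be told apart.

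Neuron markers were read in the VNO libraries, and not all of them are particular to this tissue. In the VNO, Trpc2 was at 43.0 ± 4.85 FPKM, the olfactory marker protein gene Omp at 101 ± 12.5 and Gng8, a G protein subunit of vomeronasal neurons, at 8.02 ± 1.65 (SD, n = 12), and no VNO library lacked them. The basal markers Gnao1, Tfap2e and Robo2 summed to 9.47 to 12.6 FPKM and the apical markers Gnai2, Meis2 and Nrp2 to 70.5 to 81.7. By mean level, Trpc2, Gng8, Tfap2e, Gnai2 and Nrp2 were highest in VNO. Omp was highest in MOE, at 983 FPKM, and Gnao1, Robo2 and Meis2 were highest in OB, so presence of these 4 does not mark the VNO. Other tissue was present in varying amounts: markers of nasal glands summed to 20700 to 35000 FPKM, of sustentacular cells to 62.9 to 145, of erythroid cells to 178 to 1090, and of bone and cartilage to 79.2 to 138, while muscle markers stayed at 0.136 to 2.88. Markers of olfactory sensory neurons summed to 12.9 to 15.2 in SF and 15.1 to 21.7 in the other groups, and the vomeronasal neuron markers to 123 to 149 in SF and 124 to 174 elsewhere. Markers of plasma cells, of which 2 of 3 were in the files, were lower in every SF library, at 3.21 to 6.82 against 16.0 to 43.7. The bulb neuron markers Gad1, Tbx21 and Eomes summed to 0.702 to 0.979 in SF and 1.19 to 2.22 elsewhere. Nearly all of this sum was Gad1, with VNO means of 1.36 FPKM for Gad1, 0.0703 for Tbx21 and 0.0584 for Eomes. The part of all these markers in the differences between SF and other groups was not tested.

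**Figure D1:**
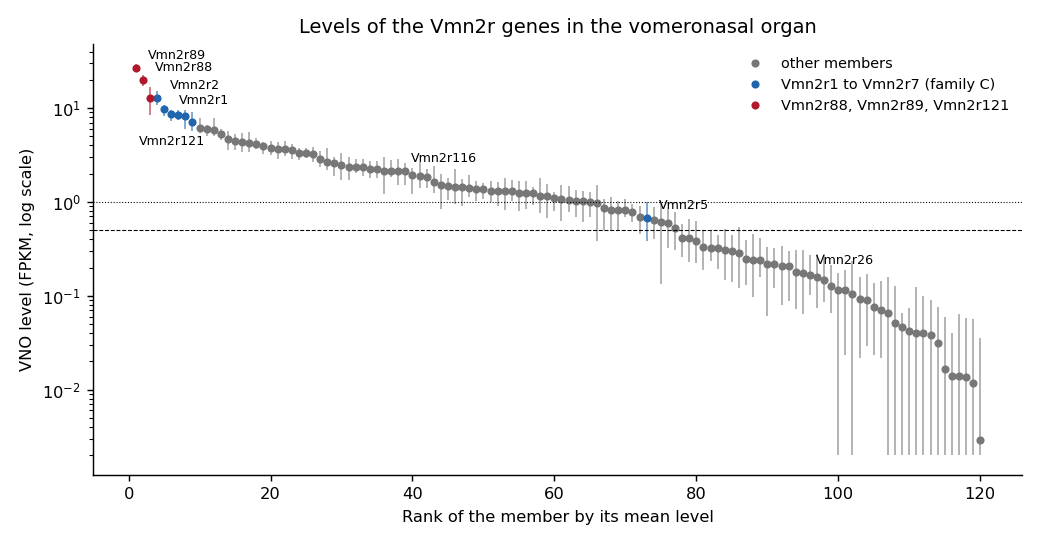
Mean VNO level of each of the 120 members above 0 (FPKM, log scale) against its rank, with vertical lines from the lowest to the highest of the 12 libraries; lines that reach the lower edge at 0.002 end at a value listed at 0 or below that edge. The dotted line marks 1 FPKM and the dashed line 0.5 FPKM, and the 3 highest members other than family C are in red. Levels fall from 26.8 FPKM in Vmn2r89 over a long tail, and Vmn2r5 sits far below the other family C genes.

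Levels spanned a wide range in the VNO, and the receptors were dominated by few genes. Vmn2r89 was highest at 26.8 ± 1.66 FPKM, followed by Vmn2r88, a receptor reported to bind haemoglobin, at 19.9 ± 1.83 (SD, n = 12). Their ranges over the 12 libraries, 24.3 to 29.8 (median 26.9) and 17.0 to 22.5 (median 19.7), did not overlap. Vmn2r121 was next at 12.8 ± 2.67, close to the family C gene Vmn2r2 at 12.7 ± 1.34. The ranges of these genes, 8.48 to 16.7 and 10.8 to 15.2, overlapped. Later pairs of neighbours in rank overlapped or met as rounded, as Vmn2r2 and Vmn2r1 (8.17 to 10.8) did at 10.8. Vmn2r88, Vmn2r89 and Vmn2r121 together made up 22.1% of the summed level (20.6% to 23.8% by library), nearly the same as the 20.6% of the 7 family C genes (19.3% to 21.8%).

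In family C, 6 genes had similar and high levels. Vmn2r2 was followed by Vmn2r1 at 9.74 FPKM, Vmn2r7 at 8.57, Vmn2r6 at 8.46, Vmn2r3 at 8.16 and Vmn2r4 at 7.17. Vmn2r5 stood apart at 0.669 FPKM, with 0.381 to 0.997 over the libraries, below every library's value of every other family C gene. Its nearest relative in the family was Vmn2r2, at 93.2% identity. Only 18.8% of its 50-base words were unique, and which transcripts share the other words was not examined, so its level is uncertain. Vmn2r6 and Vmn2r7 were 98.8% identical, so that their reads may be divided by the estimation and their separate levels are uncertain.

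The next members were Vmn2r17 at 6.11 FPKM, Vmn2r28 at 5.94 and Vmn2r90 at 5.90. The 10 highest members held 44.7% of the summed level and the 20 highest 62.1%. In all, 4 members had a mean of at least 10 FPKM, 13 of at least 5, 64 of at least 1 and 77 of at least 0.5, while 20 were below 0.1 and 2 were listed at 0 in every library. The median over members was 1.06 FPKM. For comparison, 56 of the 221 Vmn1r genes (25.3%) reached 1 FPKM, with a median of 0.307, against 52.5% of the Vmn2r genes. Vmn2r26, a receptor known to respond to peptide ligands of the major histocompatibility complex, was low at 0.0645 to 0.31 FPKM (median 7.5 estimated fragments). Vmn2r116, the receptor of the male tear peptide ESP1, was in the upper part of the range at 1.52 to 2.85.

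Most members were measured in every library. At the floor of 3 estimated fragments, 98 members were seen in all 12 VNO libraries and 118 in at least 1. Entries of all but 6 members were single, and 111 of 115 single-entry members had an implied model length within 15% of the median member. The 4 outside were Vmn2r42 (1.52 times the median), Vmn2r37 and Vmn2r81 (1.27 each) and Vmn2r43 (1.17). Vmn2r89 had 3 entries at the same locus, of which 1 carried 21.6 FPKM and another 5.13, and its level is their sum. Vmn2r35, Vmn2r36, Vmn2r46 and Vmn2r47 had entries at several places on chromosome 7, all of them at or below 0.228 FPKM. Vmn2r129 was listed at 0 and lay over Vmn2r121 in the mm9 coordinates of the files, so that reads of these genes cannot be told apart. Vmn2r122, Vmn2r125, Vmn2r127 and Vmn2r128 were not analysed here.

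Spread between libraries was moderate. Among the 64 members at 1 FPKM or more, the coefficient of variation over the 12 libraries had a median of 13.5% (6.20% to 29.1%), and the variance was 2.13 times the variance expected from counting in the median member. Vmn2r121 exceeded it the most, with a coefficient of variation of 20.9% where counting alone gives 4.36%, a variance ratio of 23.0. Vmn2r88 (7.66) and Vmn2r81 (6.90) came next. Vmn2r89 had the lowest coefficient of variation, 6.20%, with a variance ratio of 3.16. The counting variance rests on estimated fragments and is approximate. In SF2, Vmn2r89 had 743 estimated fragments at 24.9 FPKM where Vmn2r88 had 863 at 19.6.

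**Figure D2:**
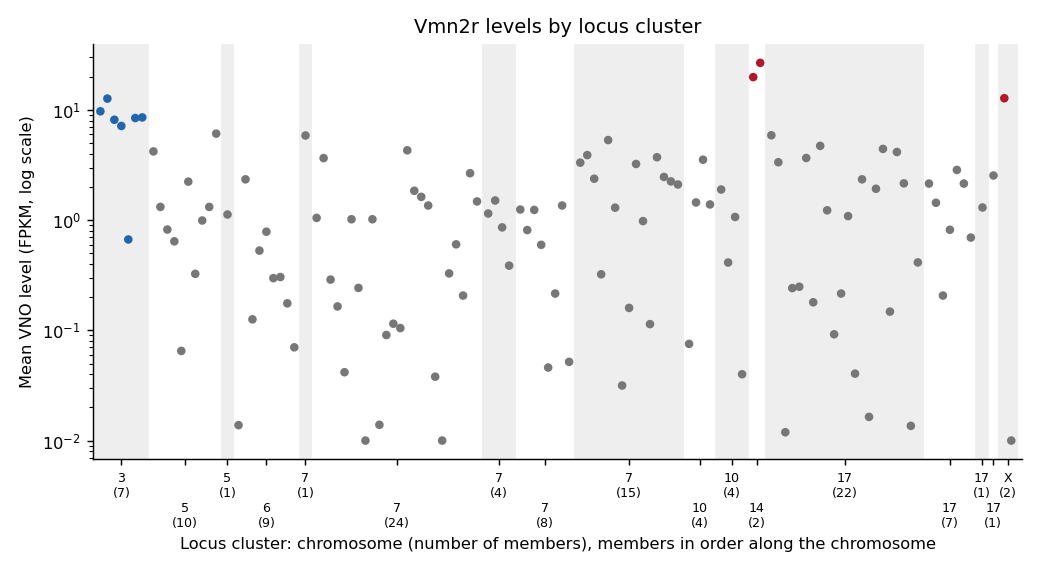
Mean VNO level of each member (FPKM, log scale; values below 0.01 drawn at 0.01) in its order along the chromosome, with shaded and unshaded bands for the 17 locus clusters, labelled by chromosome and number of members. Red points are Vmn2r88, Vmn2r89 and Vmn2r121, and blue points the family C genes. The small clusters on chromosomes 3, 14 and X hold the highest points, and the large clusters mix levels over more than 2 orders of magnitude.

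The members fell into 17 locus clusters on 8 chromosomes, where a gap of over 1000000 bases between neighbours began a new cluster, and 13 of the clusters held at least 2 members. The highest levels were in small clusters. Vmn2r88 and Vmn2r89 formed the cluster on chromosome 14 (mm9 chr14:52030676-52080968), with 46.6 ± 3.32 FPKM in sum (SD, n = 12), or 17.4% of the family. The 7 family C genes formed the only cluster on chromosome 3 (chr3:63885564-64523524), with 55.4 ± 4.52 FPKM, and Vmn2r121 with Vmn2r129 that on the X chromosome (chrX:121240948-121249519), with 12.8 ± 2.67.

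The 3 largest clusters were more mixed. The cluster of 24 genes on chromosome 7 (chr7:7165707-10761635) summed to 22.3 ± 2.35 FPKM, with a median of 0.309 per gene and Vmn2r45 highest at 4.31. Its members were the most alike in sequence, at a median of 99.3% identity to the nearest relative and 6.85% unique words, so that its single-gene levels are the least certain. The cluster of 22 genes on chromosome 17 (chr17:17840905-20733223) summed to 36.6 ± 2.48, with a median of 0.754 and Vmn2r90 highest. The cluster of 15 genes on another stretch of chromosome 7 (chr7:92088679-94186478) summed to 31.7 ± 1.67, had a median of 2.25 and 84.0% unique words, and was led by Vmn2r69 at 5.34.

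Among the other clusters, the 10 genes on chromosome 5 were led by Vmn2r17, which gave 33.8% of their 18.1 FPKM. The second cluster of chromosome 17, with 7 genes that include Vmn2r116, was led by Vmn2r115, reported as a receptor of the juvenile tear peptide ESP22, at 2.86 FPKM, or 27.7% of the cluster. Vmn2r82 led the 4 genes of the first cluster on chromosome 10 at 3.54, and Vmn2r84 those of the second at 1.90. On chromosome 6, only Vmn2r20 of 9 genes reached 1 FPKM, at 2.35, and it gave 50.4% of the cluster. The clusters of 4 and 8 genes on chromosome 7 were led by Vmn2r54 at 1.51 and Vmn2r63 at 1.36. Vmn2r28, Vmn2r18 (1.15 FPKM), Vmn2r118 (1.32) and Vmn2r120 (2.59) each lay alone.

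Females were compared with males over both housings, to see whether receptor levels differ by sex. All comparisons used limma on log2(FPKM + 0.5) with Benjamini-Hochberg adjustment over the 13864 genes with a mean of at least 0.5 FPKM, 77 members among them, and log2 changes on that scale understate the change of low genes. No member passed an adjusted p of 0.05, where 0.123% of all genes did (17 genes, and 10 without SM replicate 1). At an unadjusted p under 0.05 there were 14 members, or 18.2%, beside a background of 6.73% of all genes. Of these, 5 were higher in females (1.76% of all genes) and 9 lower (4.97% of all genes). In 4 members the 6 female and 6 male libraries did not overlap, beside 0.628% of all genes. Vmn2r121 and Vmn2r69 were higher in females (0.216% of all genes), and Vmn2r49 and Vmn2r81 lower (0.411% of all genes). Vmn2r49, counted here and among the 14, passed the filter at 0.5 FPKM only through the males, with means of 0.366 FPKM in females and 0.841 in males. The nearest female and male libraries of Vmn2r69 were both at 5.39 FPKM as rounded. Markers of other cells also separated the sexes: the bone and cartilage markers summed to 107 to 138 FPKM in female and 79.2 to 99.5 in male libraries. The sum of the bulb neuron markers, nearly all of it Gad1, was 0.702 to 1.35 in female and 1.73 to 2.22 in male libraries. The part of these markers in the receptor values was not tested.

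**Figure D3:**
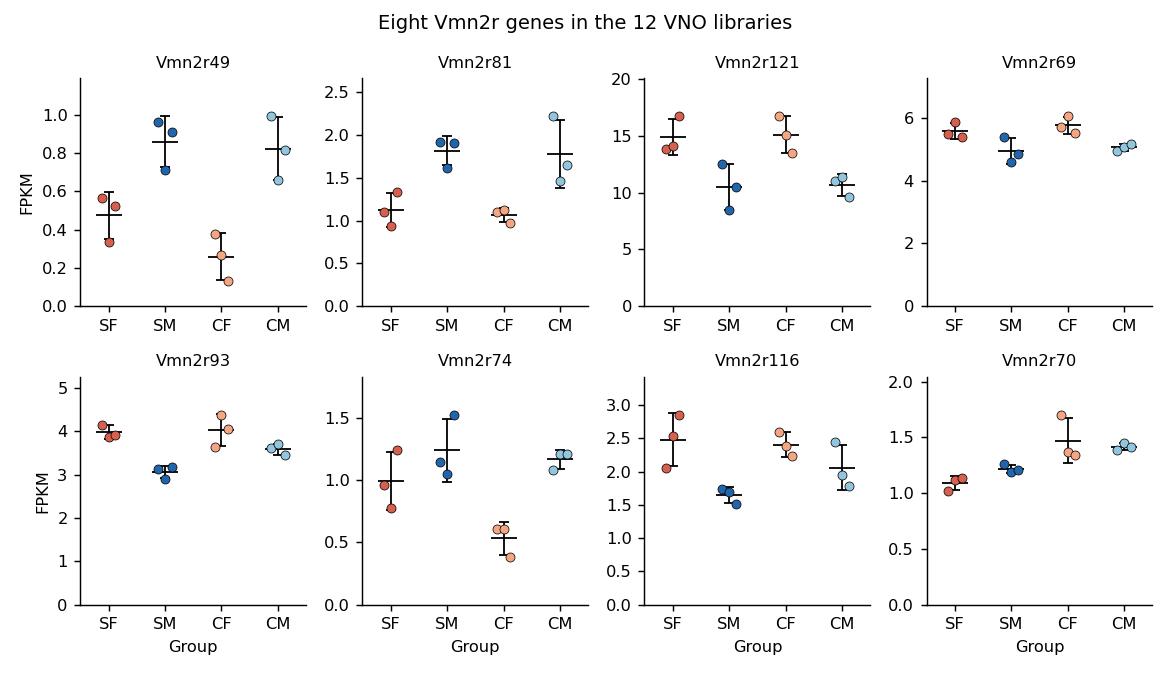
Levels of 8 members (FPKM, linear axes from 0) in the 12 VNO libraries, with a coloured point per library and black marks for the mean ± SD of the 3 libraries of each group (SF, SM, CF, CM). Female and male points do not overlap in Vmn2r49, Vmn2r81, Vmn2r121 and Vmn2r69, and the CF points of Vmn2r74 lie below those of the other 3 groups.

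Vmn2r49, on chromosome 7 (mm9 chr7:10561594-10577488), was at 0.567, 0.334 and 0.523 FPKM in SF and 0.375, 0.267 and 0.132 in CF, against 0.960, 0.711 and 0.908 in SM and 0.991, 0.661 and 0.813 in CM. Every female value was below every male value. The log2 change was -0.65 ± 0.12 (SE), with a ratio of female to male means of 0.436 and an adjusted p of 0.0736 in limma. Vmn2r49 reached the mean of 0.5 FPKM needed for the test only through the male libraries, with 0.366 ± 0.162 FPKM in females and 0.841 ± 0.135 in males (SD, n = 6 each). Without any filter on low values, its adjusted p was 0.073 in limma. Each value rested on 7 to 49.3 estimated fragments, and with 14.6% unique 50-base words the fragments can come in part from near-identical genes. Its nearest relative Vmn2r32 was at 0.101 to 0.275 FPKM and was too low to be tested.

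Vmn2r81, on chromosome 10 (chr10:78710522-78757280), was at 1.10, 0.941 and 1.34 FPKM in SF and 1.10, 1.12 and 0.975 in CF, against 1.92, 1.62 and 1.91 in SM and 2.22, 1.46 and 1.65 in CM. The female values were again all below the male values, and the female mean was 0.610 of the male mean. The log2 change was -0.52 ± 0.09 (SE, adjusted p = 0.0736 in limma). With library weights in limma, Vmn2r81 passed the threshold (adjusted p = 0.0402), and over all alternatives its adjusted p reached up to 0.164. Vmn2r82, its neighbour and nearest relative, was at 3.37 ± 0.449 FPKM in females and 3.71 ± 0.316 in males (SD, n = 6 each), with overlapping ranges and a log2 change of -0.13 ± 0.08 (adjusted p = 0.840 in limma).

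Vmn2r121, on the X chromosome, was at 13.5 to 16.7 FPKM in the 6 female libraries (median 14.6) and at 8.48 to 12.5 in the 6 male libraries (median 10.7). All 6 female libraries were above all 6 male libraries, with a ratio of means of 1.42. The log2 change was 0.49 ± 0.09 (SE, adjusted p = 0.0917 in limma). It passed the threshold with upper quartile scaling (adjusted p = 0.0450), quantile normalization (0.0445) and the neuron marker covariate (0.0160), and over all alternatives its adjusted p ran from 0.0160 to 0.195. Its close relatives on chromosome 14 had overlapping female and male ranges, with log2 changes of -0.03 ± 0.08 for Vmn2r88 (adjusted p = 0.970 in limma) and -0.05 ± 0.06 for Vmn2r89 (adjusted p = 0.928 in limma).

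Vmn2r69 differed less, with 5.39 to 6.05 FPKM in females and 4.61 to 5.39 in males, the nearest female and male libraries being about equal, and an adjusted p of 0.448 in limma. Vmn2r93 was at 3.65 to 4.38 in females and 2.90 to 3.70 in males (log2 change 0.24 ± 0.05, SE, adjusted p = 0.187 in limma), with overlap through CM. Vmn2r74 had a log2 change of -0.46 ± 0.10 (SE, adjusted p = 0.187 in limma) that came mainly from CF, and Vmn2r116 one of 0.33 ± 0.08 (SE, adjusted p = 0.311 in limma). The 7 family C genes showed no such separation. Their log2 changes lay between -0.12 and 0.07, with adjusted p-values from 0.873 to 0.977 in limma, and female and male ranges overlapped in each.

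The direction of the family as a whole depended on the scaling. Of the 77 members, 34 were higher and 43 lower in females, with a median log2 change of -0.02 beside -0.03 over all genes. With upper quartile scaling, 42 were higher and 35 lower, and the median of all genes was 0.00126. The log2 changes of Vmn2r49, Vmn2r81 and Vmn2r121 kept their sign in every alternative. Their female and male libraries did not overlap, so a changed pseudocount or filter, or leaving out a library, could not have reversed it.

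Between the sex-separated groups, SF and SM, 0 members were called in limma, where 0.0721% of all genes were (10 genes, and 5 without SM replicate 1), and 9 of 77 (11.7%) had an unadjusted p under 0.05, beside 8.79% of all genes. By group means, SF was below SM for most genes: the median log2 change was -0.08 over all genes and -0.04 over members, with 27 members higher and 50 lower. After upper quartile scaling, 45 were higher and 32 lower. The upper quartile of gene levels was 6.75, 7.39 and 7.65 FPKM in SF1, SF2 and SF3, and 7.89, 7.72 and 7.51 in SM. SF1 also had the fewest estimated fragments (3370000) and, in the paper, the lowest share of concordant pairs among VNO samples. The part of SF1 in the shift was not tested. Vmn2r93 had the smallest p, at 4.16, 3.87 and 3.92 FPKM in SF against 3.13, 2.90 and 3.17 in SM (log2 change 0.33 ± 0.08, SE, adjusted p = 0.264). Vmn2r116, the ESP1 receptor, was at 2.06, 2.53 and 2.85 in SF against 1.74, 1.69 and 1.52 in SM, without overlap (0.47 ± 0.12, adjusted p = 0.334 in limma). Vmn2r81 (-0.51, adjusted p = 0.334) and Vmn2r121 (0.50, adjusted p = 0.352) followed in the same fit, and 12 members had groups without overlap, beside 14.5% of all genes. These 12 include Vmn2r49, which passed the filter only through the males. Vmn2r121 passed the threshold in this comparison with the neuron marker covariate (adjusted p = 0.0423).

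Between the sex-combined groups, CF and CM, 0 members were called in limma beside 0.0433% of all genes, and 9 of 77 (11.7%) had an unadjusted p under 0.05, beside 3.94% of all genes. Higher and lower members were balanced here, at 38 and 39. Vmn2r49 had the smallest p (log2 change -0.81 ± 0.16, SE, adjusted p = 0.293), but here too it passed the filter only through the males, at 0.258 FPKM in CF and 0.822 in CM. It was followed by Vmn2r74 (-0.70 ± 0.15, adjusted p = 0.382 in limma). Vmn2r74 was at 0.604, 0.611 and 0.382 FPKM in CF against 1.08, 1.21 and 1.21 in CM. It was at 0.962, 0.777 and 1.24 in SF and 1.14, 1.05 and 1.52 in SM, so that the CF libraries were below all others. Vmn2r81 (-0.53, adjusted p = 0.583) and Vmn2r121 (0.48, adjusted p = 0.771) were next in the same fit. Groups did not overlap in 16 of 77 members, beside 8.71% of all genes.

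**Figure D4:**
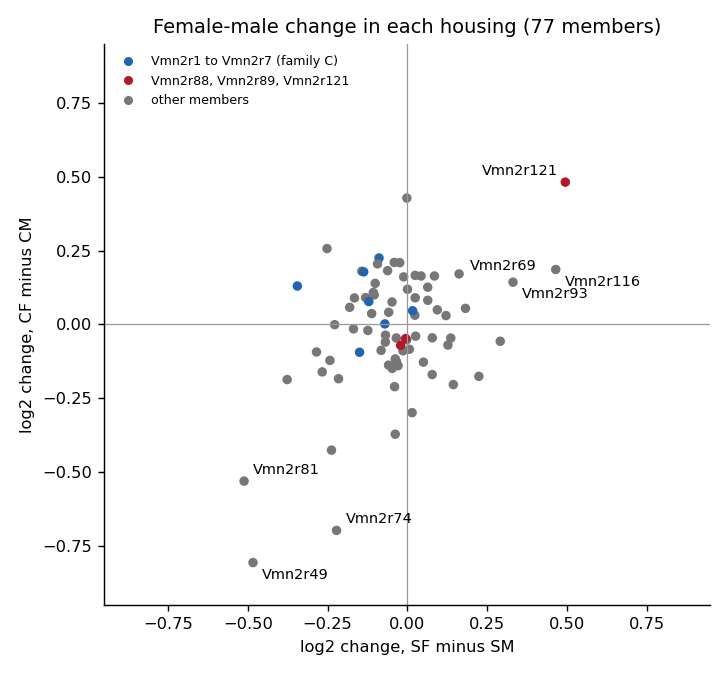
Log2 change between females and males on the log2(FPKM + 0.5) scale for the 77 members tested, sex-separated (SF minus SM, horizontal) against sex-combined (CF minus CM, vertical). Vmn2r121 at upper right and Vmn2r81 and Vmn2r49 at lower left lie away from the cloud with the same sign in both housings.

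The 2 sex comparisons share no library. Of the 77 members, 44 (57.1%) had the same sign in both, against 50.1% of all genes tested, and Pearson's r of the log2 changes was 0.427 over members and 0.228 over all genes. These are descriptions across genes, which are not independent replicates. The interaction of sex and housing called 0 members and 0.0% of all genes in limma, with 5 members (6.49%) at an unadjusted p under 0.05 beside 5.26% of all genes, and the smallest adjusted p among members was 0.895. Those with the smallest p were Vmn2r57 (-0.51), Vmn2r42 (0.35), Vmn2r74 (0.48) and Vmn2r18 (-0.43), as differences of log2 changes. The interaction of Vmn2r121 was 0.01 ± 0.19 and that of Vmn2r81 0.02 ± 0.19 (SE).

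Housing was compared within each sex, to see whether receptor levels differed with it. Sex-combined cages also had litters, and sex-separated cages stood in single-sex rooms. Breeding and room therefore cannot be told apart from exposure to the opposite sex. Between SF and CF, 0 members and 0.0% of all genes were called in limma, with 10 members (13.0%) at an unadjusted p under 0.05 beside 11% of all genes. Vmn2r74 had the smallest p (0.53 ± 0.15, SE, adjusted p = 0.369 in limma), followed by Vmn2r70 (-0.30), Vmn2r104 (0.39) and Vmn2r28 (-0.23). Vmn2r28 was at 5.01, 5.55 and 5.77 FPKM in SF and 6.26, 6.60 and 6.54 in CF. As with SM, most genes were lower in SF, with a median log2 change of -0.10 over all genes and -0.06 over members, and 27 members were higher and 50 lower. After upper quartile scaling, 42 were higher and 35 lower. The upper quartile was lowest in SF1, at 6.75 FPKM, with 7.39 and 7.65 in SF2 and SF3 and 7.82, 8.11 and 7.54 in CF. In 9 members the groups did not overlap, beside 15.6% of all genes.

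Between SM and CM, 0 members and 0.0% of all genes were called in limma, with 1 member of 77 at an unadjusted p under 0.05 beside 2.31% of all genes. This was Vmn2r93, at 3.13, 2.90 and 3.17 FPKM in SM and 3.61, 3.70 and 3.45 in CM (-0.20 ± 0.08, SE, adjusted p = 1.0 in limma). The next were Vmn2r117 (-0.34), Vmn2r57 (0.31) and Vmn2r116 (-0.25), and 9 members had groups without overlap, beside 7.93% of all genes.

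Over both sexes, sex-separated against sex-combined libraries gave 0 called members and 0.0% of all genes in limma, with 8 of 77 members at an unadjusted p under 0.05 beside 7.57% of all genes. Vmn2r70 was the only member whose 6 sex-separated and 6 sex-combined libraries did not overlap, beside 0.317% of all genes. It was at 1.02, 1.12 and 1.14 FPKM in SF and 1.26, 1.19 and 1.21 in SM, against 1.70, 1.37 and 1.34 in CF and 1.39, 1.45 and 1.41 in CM (log2 change -0.23 ± 0.06, SE, adjusted p = 0.619 in limma). Vmn2r74 (0.29), Vmn2r104 (0.22) and Vmn2r20 (-0.17) had the next smallest p. With upper quartile scaling, the split of members moved from 24 higher and 53 lower to 40 and 37. The RNA integrity values in the paper were mostly higher for sex-separated than for sex-combined VNO samples. Their part in the housing comparisons was not tested.

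Other genes of the basal neurons were counted in the same fits. Of 14 listed genes (Gnao1, Tfap2e, Robo2, Calr4, B2m and 9 H2-M genes), 0 were called between females and males, and 5 had an unadjusted p under 0.05, all of them H2-M genes that were lower in females, beside 6.73% of all genes at that p and 4.97% lower. H2-M9 had the smallest p (-0.46 ± 0.10, SE, adjusted p = 0.159 in limma), while Gnao1 was at -0.07 ± 0.10 and Tfap2e, a transcription factor of basal neurons, at 0.06 ± 0.08. The list's median log2 change was -0.11 beside -0.03 over all genes. Of the 3 apical and 8 shared vomeronasal genes, 0 were called in any comparison, with medians of -0.05 and -0.10 between females and males. The 8 were Trpc2, Omp, Gng8, Gng13, Ano1, Ano2, Cnga4 and Stoml3, and 2 of them had an unadjusted p under 0.05. Both, Ano1 and Stoml3, were lower in females. This list is not particular to the VNO: Stoml3 had means of 5.57 FPKM in VNO and 276 in MOE. Omp, Gng13, Ano2 and Cnga4 were also higher in MOE, and Trpc2, Gng8 and Ano1 in VNO. Among markers of other cells, the interneuron gene Gad1 was called lower in females (-0.66 ± 0.09, SE, adjusted p = 0.0132 in limma) and lower in SF than in SM (-0.86, adjusted p = 0.0298 in limma).

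**Figure D5:**
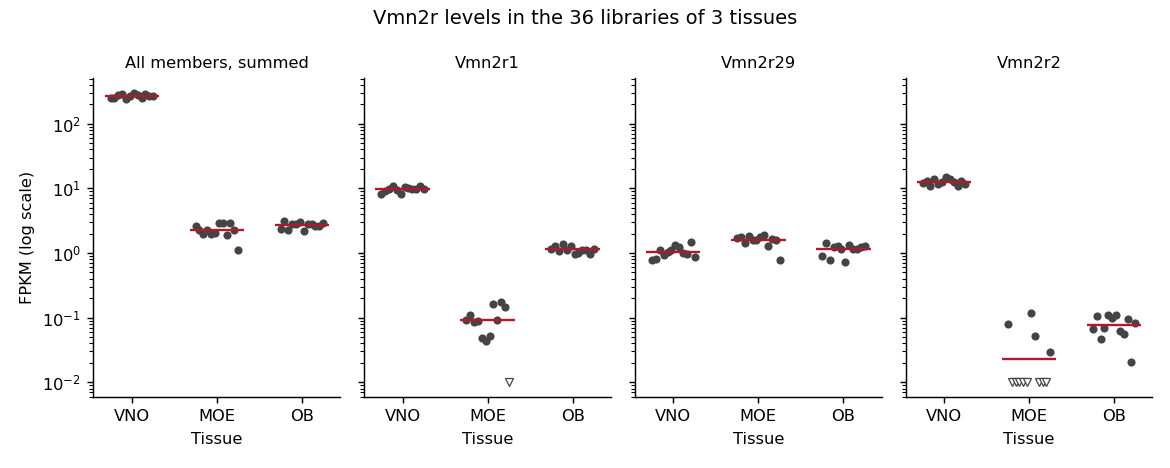
Levels (FPKM, log scale) in the 12 libraries of each tissue for the sum of all members, Vmn2r1, Vmn2r29 and Vmn2r2, with filled points for libraries, red lines for their mean, and open triangles at 0.01 for libraries listed at 0. The sum is about 2 orders of magnitude lower outside the VNO, while Vmn2r29 is at similar levels in all 3 tissues and Vmn2r1 is near 1 FPKM in every OB library.

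Outside the VNO only traces of the family were found. The summed level was 2.26 ± 0.529 FPKM in MOE and 2.69 ± 0.296 in OB (SD, n = 12 each), so that the VNO sum was 119 and 99.9 times higher. The tables of the tissues were made separately, and levels set across them were not tested. At the floor of 3 estimated fragments, 9 members were seen in at least 1 MOE library and 7 in at least 1 OB library, and most of this came from 2 genes. Without Vmn2r1 and Vmn2r29, the sum was 0.598 ± 0.286 FPKM in MOE and 0.413 ± 0.103 in OB.

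Vmn2r29 was the highest member in MOE, at 0.791 to 1.92 FPKM, and was at 0.730 to 1.41 in OB and 0.785 to 1.46 in VNO. It was seen in all 36 libraries. The level came mostly from a non-coding RefSeq entry that spans the locus (mm9 chr7:7165707-7231000), with means of 1.54 FPKM in MOE, 1.10 in OB and 0.784 in VNO. The coding entry within it was at 0.0294, 0.0368 and 0.271 FPKM, so that the coding entry was highest in VNO.

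Vmn2r1 had the same mean as Vmn2r29 in OB, 1.14 FPKM, with 1.16, 1.28 and 1.08 FPKM in SF, 1.40, 1.11 and 1.28 in SM, 0.958, 1.01 and 1.12 in CF, and 1.11, 0.961 and 1.17 in CM. All 12 OB libraries were well above the floor, which lay at 0.0456 to 0.0952 FPKM, with 44.3 to 76 estimated fragments each, and the groups overlapped. In MOE it was at 0 to 0.175 FPKM, with at most 8 fragments. The other family C genes did not follow it: the ratio of mean Vmn2r1 to mean Vmn2r2 was 14.7 in OB and 0.769 in VNO. Trpc2, present in all vomeronasal neurons, was at 0 to 0.634 FPKM in OB, and the mean Vmn2r1 level was 8.56 times higher in VNO than in OB.

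The remaining traces were close to the floor. Vmn2r57 reached 0.142 FPKM in MOE and 0.210 in OB, Vmn2r87 0.176 in OB, and Vmn2r2 0.118 in MOE and 0.111 in OB. No more than 8 estimated fragments lay behind any of them. Vmn2r87 had a higher mean in OB than in VNO, with overlapping ranges. It was at 0.0316 to 0.176 FPKM in OB (mean 0.0851, at the floor in 9 libraries) and 0 to 0.0998 in VNO (mean 0.0400). Vmn2r84, Vmn2r85 and Vmn2r86 of the same cluster were higher in VNO. Vmn2r88 was at 5 fragments in a single MOE library, and Vmn2r89 and Vmn2r121 did not reach the floor in either tissue.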

How the data were processed

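RNA was depleted of ribosomal RNA, and stranded libraries were sequenced as pairs of 50 bases. Per the labels' processing notes, the authors aligned reads with TopHat2 2.1.0 and computed FPKM per RefSeq entry with Cufflinks 2.2.1.0 on mm9; Cuffdiff was named too. These deposited FPKM values with their limits were the unit used here. The number of mice per pool is given as 3 in the paper and 2 in the series' text, and p-values measure only the spread between these pools. Entries were matched to symbols by RefSeq accession (99.7%) and summed. Fragments were estimated from the 95% limits, which do not cover the spread between pools. Of VNO estimates under 10 fragments, 59.0% lay near whole numbers. The estimates are therefore approximate and may hold more than counting error.

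The 4 VNO groups were fitted together with limma 3.58.1 in R 4.3.3 (eBayes with a trend) on log2(FPKM + 0.5) for genes with a mean of at least 0.5, and 7 contrasts were tested two-sided. The groups share replicate numbers, and all 3 same-numbered pairs of SF and SM had deviations from their group means correlated at 0.127 to 0.203. In no other pair of groups were all 3 above 0.1, though those of SF and CF were at 0.0991, 0.273 and 0.135. Any such pairing comes from the data, not the design. The main fit used no pairing, so its p-values between SF and SM are unpaired, and the replicate block named below covered all 4 groups. Alternatives changed the pseudocount, filter, scaling (upper quartile, quantile) or the libraries fitted, or took the highest entry per gene. Others added library weights, a replicate block or a neuron marker covariate, the mean of log2(FPKM + 0.5) over Trpc2, Omp and Gng8. Sequences came from GENCODE M21, and identity was computed on coding sequences with edlib 1.3.9.post1 because no protein table was used here; its coordinates are GRCm38 and are not mixed with mm9. Tables were handled in Python 3.11.15.

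The members, gene lists and tests were chosen with earlier results of these data known. Named members were the 12 highest in VNO, family C, Vmn2r26, Vmn2r88, Vmn2r116, Vmn2r49, Vmn2r74, any called member or the 4 with the smallest p per comparison, the highest of each cluster and the 3 highest in MOE and in OB. Others were named after their values were seen.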

Additional observations from a re-analysis of the deposited data

Results flagged for a closer look

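Signals of 10 or more estimated fragments lay outside the VNO, in tissues that no comparison of groups used. Vmn2r1 had a mean of 1.14 FPKM in OB, above the floor in 12 of 12 libraries. Vmn2r29 had a mean of 1.14 FPKM in OB and 1.57 FPKM in MOE, also in 12 of 12 libraries of each, and nearly all of it belonged to the non-coding entry. No group had 4 to 10 libraries, so single libraries were not tested as outliers, and no member's sex difference was called as differing between the housings.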

How the results depend on the processing

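The log2 changes of Vmn2r49, Vmn2r81 and Vmn2r121 between females and males kept their sign in every alternative. As their female and male libraries did not overlap, a changed pseudocount or filter, or a fit without 1 library, could not have reversed it. The count of called members was 0 in all 7 comparisons and in each fit without 1 library, and it became 1 between SF and SM with the neuron marker covariate (Vmn2r121), and between females and males 1 with upper quartile scaling, 1 with quantile normalization and 1 with the neuron marker covariate (Vmn2r121 each time) and 2 with library weights (Vmn2r49, adjusted p = 0.0405, which passed the filter on low values only through the males, and Vmn2r81, adjusted p = 0.0402, in limma). The cause was not tested. Without 1 library, the adjusted p between females and males ran from 0.0651 to 0.203 for Vmn2r49, 0.0672 to 0.203 for Vmn2r81 and 0.0552 to 0.297 for Vmn2r121. Over all 4 groups, 18 same-numbered pairs had deviations correlated at -0.14 to 0.273, with 7 above 0.1, and 10 of 12 libraries correlated best with their own number, a hint of pairing from the data that the labels do not give. With the replicate block, 0 members were called in any comparison, the genes called were 7 instead of 10 between SF and SM and 13 instead of 17 between females and males, and members at an unadjusted p under 0.05 in the interaction were 2 instead of 5. The summed level in sex-separated over sex-combined libraries was 0.957, and 0.939 to 0.975 without 1 library. This ratio was 0.999 after division by the upper quartile and 1.1 after division by the neuron markers, on the other side of 1. The cause was not tested. Members at an unadjusted p under 0.05 between females and males numbered 9 without SF replicate 2, SM replicate 1 or CF replicate 3, instead of 14. Over all alternatives and fits without 1 library they numbered 6 to 13 between SF and SM, 7 to 13 between CF and CM, 1 to 9 in the interaction, 5 to 16 between SF and CF, 1 to 5 between SM and CM and 3 to 12 between the housings. All genes called between females and males numbered 28 with library weights, 10 without SM replicate 1 and 11 without CM replicate 2 or 3. Between SF and SM they numbered 5 without SM replicate 1 and 6 without SF replicate 3 or SM replicate 3, and between CF and CM 11 with only the 6 libraries compared. In the interaction, 34 members were higher and 43 lower, and 46 and 31 with upper quartile scaling. Members seen in MOE numbered 81 when any value above 0 counted and 1 at 10 estimated fragments, and those in OB 41 and 2. The 45 members below a mean of 0.5 FPKM were not tested, so that nothing is known here of differences in them.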
